A study of Homo sapiens with 12 samples.

Results

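The insulin-like growth factor (IGF) axis was followed in Huh7 cells, an established human hepatocellular carcinoma line, after inhibition of the HIF prolyl hydroxylases. The axis consisted of 10 genes taken by symbol: the ligand IGF2, the binding proteins IGFBP1, IGFBP2, IGFBP3 and IGFBP4, the receptors IGF1R, IGF2R and INSR, and the substrates IRS1 and IRS2. They are 10 of the 60666 genes listed in each library, and all 10 were among the 14274 genes with enough counts to be tested. Cells were plated, in 6-well format, into medium holding 25 µM Molidustat or DMSO alone and were lysed after 24 h or 48 h, which gives 4 groups of 3 libraries. No other treatment or genetic change is named for any of the groups. The replicates are called biological in the methods, and triplicate RNA extractions in the labels. The p-values therefore measure the spread between these libraries, which may in part be technical.

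IGF2 is a secreted growth factor of fetal liver that is often made again by liver tumors. It acts through IGF1R and through INSR, the insulin receptor, both tyrosine kinases that phosphorylate IRS1 and IRS2 and thereby engage PI3K and AKT, whereas IGF2R takes the ligand up for degradation and does not signal as a kinase. The binding proteins hold IGFs outside the cell and set how much reaches the receptors. IGFBP1 is a product of hepatocytes that is known as a target of hypoxia-inducible factors and is repressed by insulin. Molidustat inhibits the enzymes that mark HIF-α subunits for degradation.

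The libraries read the 3′ end of transcripts, and levels are in CPM, in which counts were brought to 1 library size with TMM factors. Gene counts summed to 2462623 to 4744982 in the DMSO 24 h libraries, 2703897 to 8202125 in the Molidustat 24 h libraries, 1499273 to 9179389 in the DMSO 48 h libraries and 2312396 to 5122636 in the Molidustat 48 h libraries. The smallest library, DMSO 48 h replicate 2, stood apart. Its reads on no annotated feature made up 50.4%, against 17.1 to 25.6% in the other 11 libraries, and its TMM factor was 0.629, against 1.01 to 1.08. Its log2 CPM correlated with those of the other libraries at r = 0.707 to 0.782, whereas the other 11 correlated with each other at 0.855 to 0.956. It is 1 of only 3 controls at 48 h, and the 48 h log2 fold changes of the 10 members are plotted with and without it.

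IGFBP1, 1 of the 4 binding proteins, was the only member called. A gene was called when its adjusted p from edgeR's quasi-likelihood test was under 0.05 and its log2 fold change was beyond 1. At 24 h, 0 of the 10 members were called and 1 had an unadjusted p under 0.05, where 0.231% of all genes tested were called and 5.25% had an unadjusted p under 0.05. At 48 h, 1 of 10 was called, where 0.231% of all genes were called in either direction and 0.21% as higher with Molidustat. At 48 h 4 members (IGFBP1, IGFBP2, IGFBP3 and INSR) had an unadjusted p under 0.05 by edgeR, beside 13.3% of all genes. Without DMSO 48 h replicate 2 there were also 4, with IGF2 in place of INSR, beside 6.6% of all genes. The median log2 fold change of the members was 0.39 at 24 h and 0.23 at 48 h, beside 0.02 and 0.01 over all genes tested. The 3 Molidustat libraries lay above the 3 DMSO libraries for 1 member at 24 h, IGF2, and for 3 members at 48 h, IGFBP1, IGFBP2 and IGFBP3, and below them for 0 members at either time. Among all genes tested, the Molidustat libraries lay above the DMSO libraries for 7.26% at 24 h and for 9.96% at 48 h, and the groups were separate in either direction for 12.3% and 18%.

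**Figure D1:**
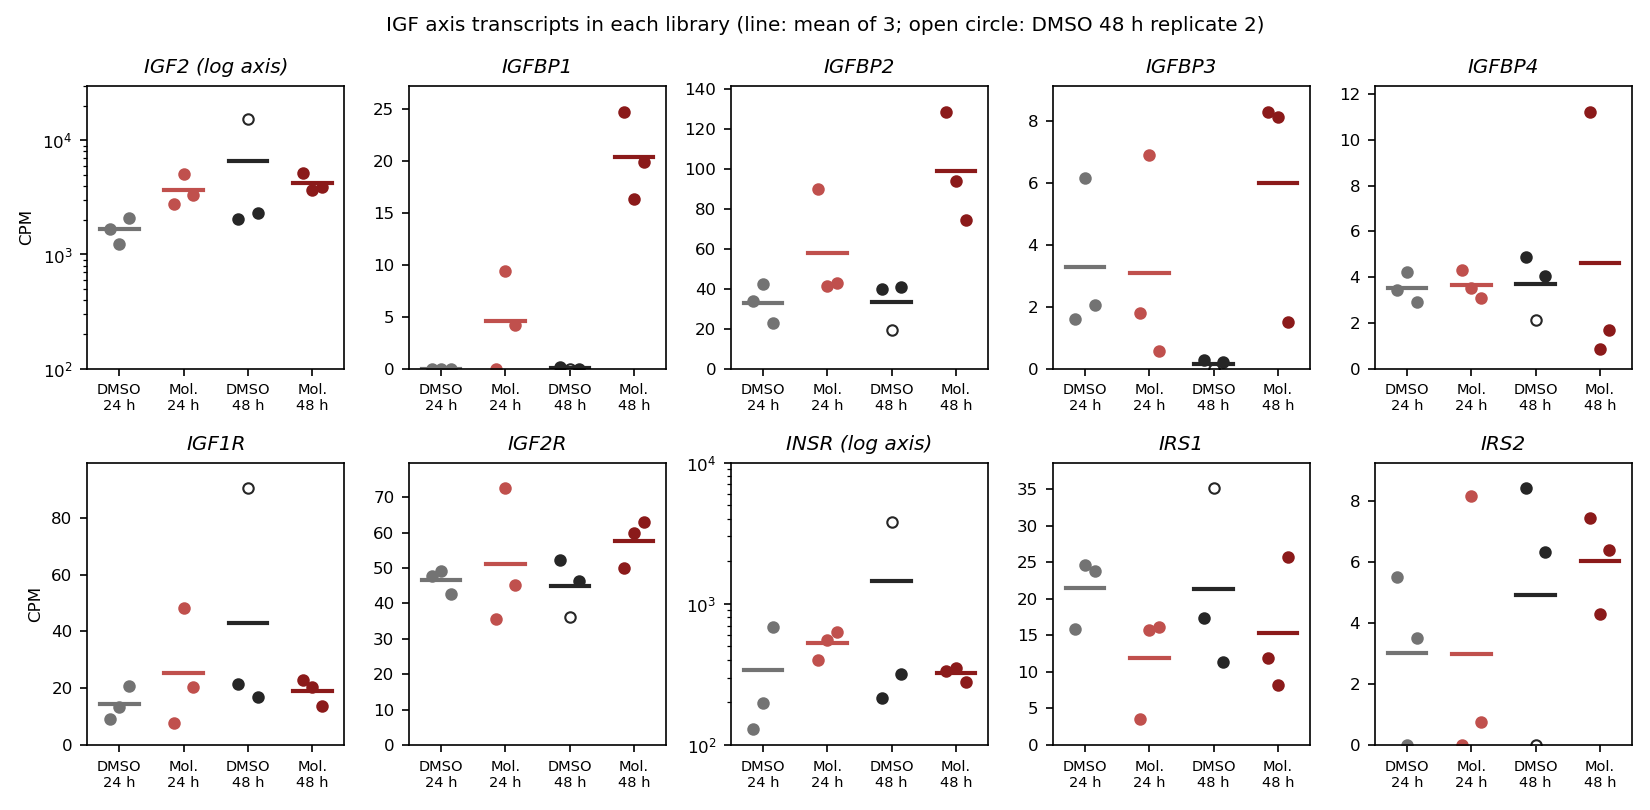
CPM of the 10 members in each of the 12 libraries, in 4 groups of 3 (Mol., Molidustat), with a line at each group mean and an open circle for DMSO 48 h replicate 2. IGF2 and INSR are on log axes, the other panels start at 0. IGFBP1 is near 0 in all 6 DMSO libraries and at 16.3 to 24.7 CPM in the Molidustat 48 h libraries, and the open circle is the highest point of IGF2, IGF1R, INSR and IRS1.

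IGFBP1 (ENSG00000146678, GRCh38 chr7:45888360-45893660, plus strand) binds IGFs in plasma with a short half-life. It had 0 counts in each of the 3 DMSO 24 h libraries, and 1, 0 and 0 counts in the DMSO 48 h libraries. In the Molidustat 24 h libraries it had 0, 77 and 22 counts, or 0, 9.35 and 4.23 CPM. In the Molidustat 48 h libraries it had 110, 38 and 106 counts, or 24.7, 16.3 and 19.9 CPM. The transcript was thus at the floor without the inhibitor, present in 2 of 3 libraries after 24 h and present in all 3 after 48 h, and only at 48 h were the groups separate. The order of the group means was Molidustat 48 h (20.3 ± 4.22 CPM, SD, n = 3), Molidustat 24 h (4.53 ± 4.68, SD, n = 3), DMSO 48 h (0.0452 ± 0.0783, SD, n = 3) and DMSO 24 h (0). The 2 Molidustat groups did not overlap, whereas the Molidustat 24 h and DMSO 48 h groups did.

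Summed over each group, IGFBP1 went from 0 to 99 counts at 24 h, which is at least 24.0-fold higher against a floor of 3 counts over the DMSO group. Of the 99 counts, 77 were in Molidustat 24 h replicate 2, without which that limit was 10.8-fold, and without DMSO 24 h replicate 1 or 3 it was 15.1-fold or 14.1-fold. At 48 h it went from 1 to 254 counts, a ratio of CPM of 378 with an exact 95% interval of 67.2 to 14974 that covers counting error only. The ratio was 175 without DMSO 48 h replicate 3, and at least 74.3 against the same floor without DMSO 48 h replicate 1, which held the 1 control count. The fitted log2 fold change was 7.95 ± 1.47 (SE) at 48 h with an adjusted p of 0.0486 by edgeR, and IGFBP1 rose on this test. At 24 h it was 7.52 ± 1.74 (SE) with an adjusted p of 0.156, which did not pass. Both fitted values rest on control counts at or near 0 and are not bounds. The difference between the 48 h and 24 h responses was 0.43 on the log2 scale with an adjusted p of 0.959 by edgeR. It rests on the same control counts at or near 0, so it does not show that the responses were alike. Its derived SE of 0.99, smaller than the SE of either response, does not measure its uncertainty. The call at 48 h lay close to the threshold: it was lost with RLE factors, with the replicate number as a block and in 6 of the 12 fits that left out 1 library. The log2 fold change stayed between 7.13 and 9.54 over those 12 fits, with adjusted p from 0.00555 to 0.20. Without DMSO 48 h replicate 2, IGFBP1 was called at both times, with an adjusted p of 0.0489 at 24 h and 0.0334 at 48 h by edgeR, where 0.761% and 0.347% of all genes tested were called.

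IGFBP3 (ENSG00000146674, GRCh38 chr7:45912245-45921874, minus strand), the main carrier of IGFs in adult plasma, is the neighbor of IGFBP1, with 18584 bases between the 2 genes on opposite strands. It was at 1.61, 6.16 and 2.07 CPM in the DMSO 24 h libraries and at 1.79, 6.92 and 0.577 CPM in the Molidustat 24 h libraries, which overlapped. It was at 0.271, 0 and 0.207 CPM in the DMSO 48 h libraries and at 8.31, 8.15 and 1.50 CPM in the Molidustat 48 h libraries. At 48 h each Molidustat library exceeded each control, while the DMSO 24 h libraries lay within the range of the Molidustat 48 h libraries, so the separation at 48 h came with controls lower than those at 24 h. The fitted log2 fold change was -0.02 ± 1.05 (SE) at 24 h and 4.65 ± 1.30 (SE) at 48 h, with an adjusted p of 0.193 by edgeR at 48 h. Summed counts at 48 h were 4 with DMSO and 64 with Molidustat, a ratio of CPM of 23.8 (exact 95% interval 8.85 to 90.0, counting error only), and 15.9 to 37.1 with each 48 h library left out in turn, the highest without Molidustat 48 h replicate 3 and the lowest without Molidustat 48 h replicate 1. The difference between the responses at the 2 times was 4.67 ± 1.63 (SE), with an unadjusted p of 0.0115 and an adjusted p of 0.728. DESeq2 and the fit with no filter on low counts called IGFBP3 at 48 h, with adjusted p of 0.014 and 0.0346. With DMSO 48 h replicate 2 left out, DESeq2 called it (adjusted p 0.0325) and edgeR with no filter did not (0.183).

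IGFBP2 (ENSG00000115457, GRCh38 chr2:216632828-216664436, plus strand), a binding protein that is high in fetal liver, was at 33.8, 42.4 and 22.7 CPM in the DMSO 24 h libraries. It was at 90.0, 41.5 and 42.7 CPM in the Molidustat 24 h libraries, of which 1 was high and 2 lay at the level of the highest control. After 48 h it was at 40.0, 19.2 and 40.8 CPM with DMSO and at 129, 93.9 and 74.6 CPM with Molidustat, and the groups did not overlap. On the log2 scale the change was 0.82 ± 0.40 (SE) at 24 h and 1.53 ± 0.41 (SE) at 48 h, with an adjusted p of 0.184 by edgeR at 48 h. DESeq2 (adjusted p 0.0215), limma-voom with sample quality weights (0.0207) and the fit with no filter on low counts (0.0144) called it at 48 h. Without DMSO 48 h replicate 2 the log2 fold change was 1.28 ± 0.38 (SE), with an adjusted p of 0.302 by edgeR. The calls by DESeq2 and with no filter were lost when that library was left out (adjusted p 0.0667 by DESeq2 and 0.131 by edgeR with no filter).

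IGFBP4 (ENSG00000141753, GRCh38 chr17:40443450-40457725), which is cut by the protease PAPPA, was low in all groups. It ranged from 2.89 to 4.24 CPM in the DMSO 24 h libraries, 3.08 to 4.30 in the Molidustat 24 h libraries and 2.13 to 4.88 in the DMSO 48 h libraries. In the Molidustat 48 h libraries it was at 11.2, 0.858 and 1.69 CPM, 1 library above and 2 below every control. The log2 fold change was 0.04 ± 0.89 (SE) at 24 h and 0.28 ± 0.89 (SE) at 48 h, and neither passed the test.

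**Figure D2:**
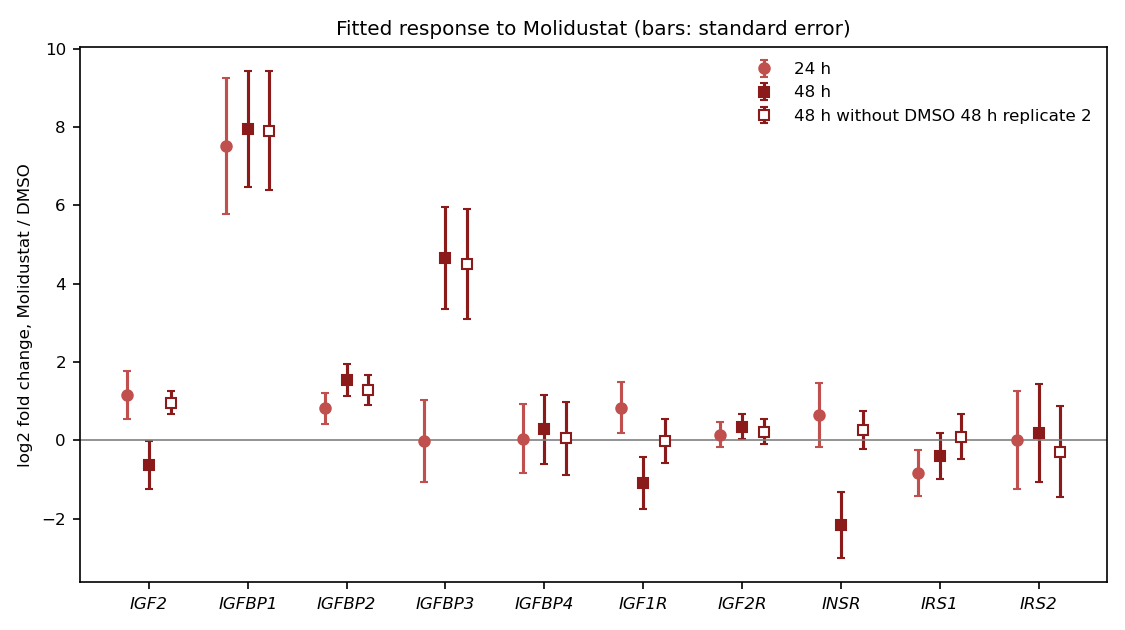
Fitted log2 fold change (y axis) of Molidustat over DMSO for the 10 members (x axis), at 24 h (circles), at 48 h (squares) and at 48 h without DMSO 48 h replicate 2 (open squares), with bars of 1 standard error. Without that library IGFBP1, IGFBP2 and IGFBP3 stay above 1, at 7.90, 1.28 and 4.50, whereas IGF2 moves from -0.62 to 0.96 and INSR from -2.16 to 0.26.

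The promoter windows of IGFBP3 and IGFBP2, whose groups were separate at 48 h, and of STC2, an inhibitor of IGFBP proteases described below, are shown for the letters of the hypoxia response element core. The windows span 250 bases before to 50 bases after an annotated start and come from RefSeq (GRCh38.p14). Capitals mark ACGTG or GCGTG on either strand (CACGT or CACGC where the match is on the other strand). IGFBP3 is at chr7:45921223-45921522 on the minus strand, IGFBP2 at chr2:216633170-216633469 on the plus strand, and STC2 at chr5:173328365-173328664 on the minus strand.
IGFBP3: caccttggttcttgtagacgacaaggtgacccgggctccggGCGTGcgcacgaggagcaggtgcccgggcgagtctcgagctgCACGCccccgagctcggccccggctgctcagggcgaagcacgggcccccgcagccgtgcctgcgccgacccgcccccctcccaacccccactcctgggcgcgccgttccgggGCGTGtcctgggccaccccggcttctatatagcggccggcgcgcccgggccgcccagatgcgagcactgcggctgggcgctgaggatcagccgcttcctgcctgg
IGFBP2: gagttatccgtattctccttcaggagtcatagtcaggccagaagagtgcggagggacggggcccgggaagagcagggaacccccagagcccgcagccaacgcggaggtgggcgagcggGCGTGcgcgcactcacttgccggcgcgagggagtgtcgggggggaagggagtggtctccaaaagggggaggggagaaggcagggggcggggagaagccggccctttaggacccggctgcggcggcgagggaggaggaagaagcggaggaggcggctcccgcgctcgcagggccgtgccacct
STC2: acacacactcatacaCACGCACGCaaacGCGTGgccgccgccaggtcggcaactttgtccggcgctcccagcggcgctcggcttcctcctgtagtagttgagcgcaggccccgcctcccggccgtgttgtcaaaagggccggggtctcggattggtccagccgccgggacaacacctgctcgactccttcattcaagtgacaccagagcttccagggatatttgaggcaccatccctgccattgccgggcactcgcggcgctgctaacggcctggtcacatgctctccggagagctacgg
The IGFBP3 window held 3 matches to GCGTG, the STC2 window 3, of which 2 share a base, and the IGFBP2 window 1. IGFBP2 has 3 windows in the table, and the one with GCGTG is printed, while the first held neither core and the third held 1 ACGTG. The table had windows for 8 of the 10 members and none for IGF2 and IGFBP1. Either core was in a window of 5 of these 8 members, and in 48.45% of all 35116 windows. The count of members takes a match in any window of a gene, whereas the share is of single windows, so the 2 differ in unit. ACGTG alone was in 21.41% and GCGTG alone in 36.54% of all windows. IGF1R, IGF2R and IRS1, which were not called at either time, also held matches, with 5, 6 and 3, and the INSR, IRS2 and IGFBP4 windows held none.

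IGF2 (ENSG00000167244, GRCh38 chr11:2129112-2158391, minus strand), the ligand, was the member whose groups were separate at 24 h. It was at 1667, 1240 and 2092 CPM in the DMSO 24 h libraries and at 2751, 5085 and 3292 CPM in the Molidustat 24 h libraries. The 48 h libraries had 2057, 15358 and 2294 CPM with DMSO and 5187, 3651 and 3944 CPM with Molidustat. The 3 Molidustat libraries at 48 h lay above DMSO replicates 1 and 3 and below DMSO replicate 2, the library that stood apart. The fitted log2 fold change was 1.15 ± 0.62 (SE) at 24 h and -0.62 ± 0.61 (SE) at 48 h, and neither passed the test (adjusted p 0.999 and 0.733 by edgeR). Without DMSO 48 h replicate 2 it was 1.17 ± 0.26 (SE) at 24 h with an adjusted p of 0.0384, which passed the test, and 0.96 ± 0.29 (SE) at 48 h with an adjusted p of 0.317 by edgeR. IGF2 was called at 48 h by DESeq2 without that library (log2 fold change 1.0, adjusted p 0.046).

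The IGF2 value is a value of the locus rather than of 1 gene. ENSG00000284779, a protein-coding gene on the same strand that shares 2711 exonic bases with IGF2, was listed with 99.7 to 99.99% of the IGF2 count in the 12 libraries, so the same reads appear to be listed under both. INS-IGF2, the read-through gene from the insulin gene, was listed with 5.62 to 13.9% of it, and the long non-coding RNA gene ENSG00000240801 with 41.2 to 53.8%. The log2 fold change of INS-IGF2 was 1.21 ± 0.55 (SE) at 24 h and 0.02 ± 0.54 (SE) at 48 h, and neither passed the test. The 48 h value of INS-IGF2 without DMSO 48 h replicate 2 was 1.07 ± 0.39 (SE), with an adjusted p of 0.502 by edgeR. H19, the imprinted RNA gene downstream of IGF2, had 0 counts in all 12 libraries, and the antisense gene IGF2-AS had 61 counts in all.

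Of the receptors, INSR and IGF1R differed most in the library that stood apart, and IGF2R varied little. INSR (ENSG00000171105, GRCh38 chr19:7112255-7294414) was at 131, 199 and 685 CPM in the DMSO 24 h libraries and at 400, 550 and 630 CPM in the Molidustat 24 h libraries. At 48 h it was at 215, 3788 and 316 CPM with DMSO and at 335, 352 and 277 CPM with Molidustat. A single library thus lay more than 10-fold above the other controls at 48 h, and the rest of the 48 h libraries overlapped. On the log2 scale the change was 0.64 ± 0.82 (SE) at 24 h and -2.16 ± 0.85 (SE) at 48 h (adjusted p 0.278 by edgeR), and 0.26 ± 0.47 (SE) at 48 h without DMSO 48 h replicate 2. The fit with no filter on low counts called INSR lower at 48 h (adjusted p 0.00018 by edgeR), and not when that library was left out (0.976). Between the 2 times the response differed by -2.80 ± 1.17 (SE) with an adjusted p of 0.728, and -0.38 ± 0.63 (SE) without that library.

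IGF1R (ENSG00000140443, GRCh38 chr15:98648539-98964530) was at 9.19, 13.5 and 20.7 CPM in the DMSO 24 h libraries and at 7.89, 48.2 and 20.4 CPM in the Molidustat 24 h libraries. After 48 h it was at 21.6, 90.5 and 16.9 CPM with DMSO and at 22.9, 20.6 and 13.9 CPM with Molidustat. The groups overlapped at both times. The log2 fold change was 0.83 ± 0.65 (SE) at 24 h and -1.10 ± 0.66 (SE) at 48 h, and -0.03 ± 0.56 (SE) at 48 h without DMSO 48 h replicate 2. IGF2R (ENSG00000197081, GRCh38 chr6:159969082-160113507), the clearance receptor, ranged from 35.5 to 72.6 CPM over the 12 libraries. Its log2 fold change was 0.14 ± 0.32 (SE) at 24 h and 0.35 ± 0.32 (SE) at 48 h, and neither passed the test.

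**Figure D3:**
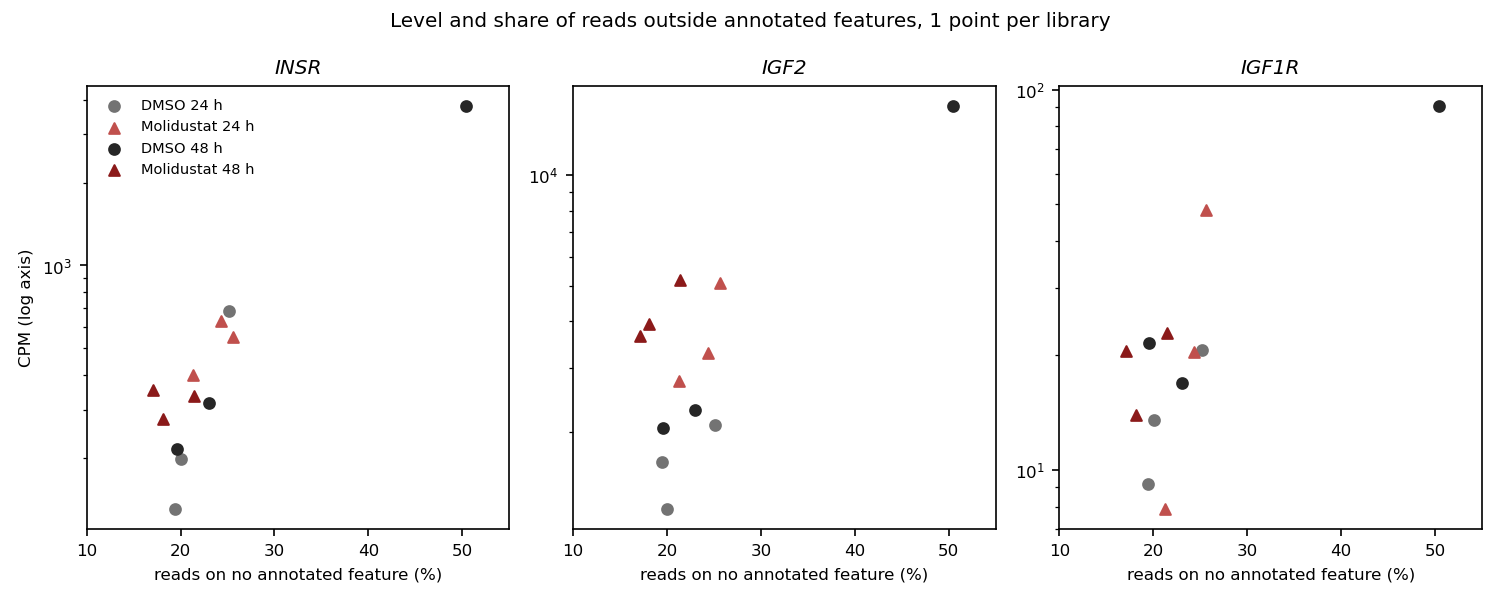
CPM (log axis) of INSR, IGF2 and IGF1R against the share of reads on no annotated feature (%), 1 point for each of the 12 libraries, circles for DMSO and triangles for Molidustat. DMSO 48 h replicate 2, at 50.4%, is the highest point of each panel, while the other 11 libraries lie between 17.1 and 25.6%.

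The high values of INSR, IGF2 and IGF1R thus came with the highest share of reads outside annotated features, and the part of that share in them was not tested. The substrates did not change by the test. IRS1 (ENSG00000169047, GRCh38 chr2:226731312-226799820), the adaptor that links the receptors to PI3K, was at 15.8, 24.7 and 23.8 CPM in the DMSO 24 h libraries and at 3.59, 15.8 and 16.2 CPM in the Molidustat 24 h libraries. At 48 h it ranged from 11.4 to 35.1 CPM with DMSO and from 8.15 to 25.7 CPM with Molidustat, and the groups overlapped at both times. Its log2 fold change was -0.83 ± 0.58 (SE) at 24 h and -0.40 ± 0.59 (SE) at 48 h, or 0.10 ± 0.58 (SE) at 48 h without DMSO 48 h replicate 2. IRS2 (ENSG00000185950, GRCh38 chr13:109752695-109786583), the main substrate of the insulin receptor in liver, was low and had 0 counts in 1 library each of the DMSO 24 h, Molidustat 24 h and DMSO 48 h groups. Its highest value was 8.40 CPM, and its log2 fold change was 0.01 ± 1.25 (SE) at 24 h and 0.19 ± 1.26 (SE) at 48 h, or -0.29 ± 1.17 (SE) at 48 h without DMSO 48 h replicate 2.

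Time in culture moved no member past the test. Between 48 h and 24 h, 0 of 10 members were called in the DMSO groups by edgeR, where 0.00701% of all genes were called, and 4 of the 10 (IGF2, IGFBP3, IGF1R and INSR) had an unadjusted p under 0.05, beside 8.14% of all genes. With DMSO 48 h replicate 2 left out, IGFBP3 alone of the 10 did, beside 4.03% of all genes. In the Molidustat groups 0 of 10 were called, where 0% of all genes were called, and 1 had an unadjusted p under 0.05, beside 4.58% of all genes, or 2 beside 9.24% with DMSO 48 h replicate 2 left out. The response at 48 h was not called different from that at 24 h for any member (0 of 10, where 0% of all genes were called, and 2, IGFBP3 and INSR, at an unadjusted p under 0.05, beside 6.78% of all genes). Of these IGFBP3 was under 0.05 with DMSO 48 h replicate 2 left out, beside 3.19% of all genes.

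The other genes of the pathway were described from a list of 35 genes, of which 24 were tested. By edgeR 0 of 24 were called at 24 h and 0 of 24 at 48 h, where 0.231% of all genes tested were called at each time. An unadjusted p under 0.05 was found for 2 of the 24 and 4 of the 24, beside 5.25% and 13.3% of all genes. The median log2 fold change of the 24 was 0.12 and 0.01. The 11 genes that were not tested included IGF1, with 33 counts in 12 libraries, INS, with 0, and PAPPA, with 17.

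STC2, stanniocalcin 2, binds and inhibits the PAPPA proteases that release IGFs from their binding proteins. It was at 5.05, 0.385 and 4.34 CPM in the DMSO 24 h libraries and at 20.8, 19.8 and 19.4 CPM in the Molidustat 24 h libraries. The 48 h libraries had 4.88, 5.32 and 4.65 CPM with DMSO and 33.9, 29.2 and 35.9 CPM with Molidustat. The groups were separate at both times and the spread within Molidustat was small. The fitted log2 fold change was 2.54 ± 0.55 (SE) at 24 h and 2.75 ± 0.56 (SE) at 48 h, with adjusted p of 0.0955 and 0.0637 by edgeR, so neither passed. Without DMSO 48 h replicate 2 it passed at both times, with adjusted p of 0.0221 and 0.0481. DESeq2 called it at both times.

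Its target PAPPA2, a protease that cuts binding proteins, had 4 counts with DMSO and 15 with Molidustat at 24 h, and 7 and 55 at 48 h. Its log2 fold change was 1.50 ± 1.42 (SE) at 24 h and 3.41 ± 1.44 (SE) at 48 h, and neither passed. Of the mRNA-binding proteins that hold IGF2 transcripts, IGF2BP1 had the lowest value at 48 h, -1.34 ± 0.43 (SE), and -0.49 ± 0.25 (SE) without DMSO 48 h replicate 2, where it was at 763 CPM against 226 and 210 CPM in the other controls, and IGF2BP3 the lowest at 24 h, -0.28 ± 0.32 (SE). Of 18 adaptors and PI3K-AKT genes tested, FOXO1 was highest (0.78 ± 0.63, SE) and PIK3R3 lowest (-0.81 ± 0.60, SE) at 24 h, on the log2 scale. At 48 h AKT1 was highest (0.70 ± 0.46, SE, and 0.40 ± 0.42 without DMSO 48 h replicate 2, where GRB14 was higher at 0.59 ± 0.59). None of these values passed the test.

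**Figure D4:**
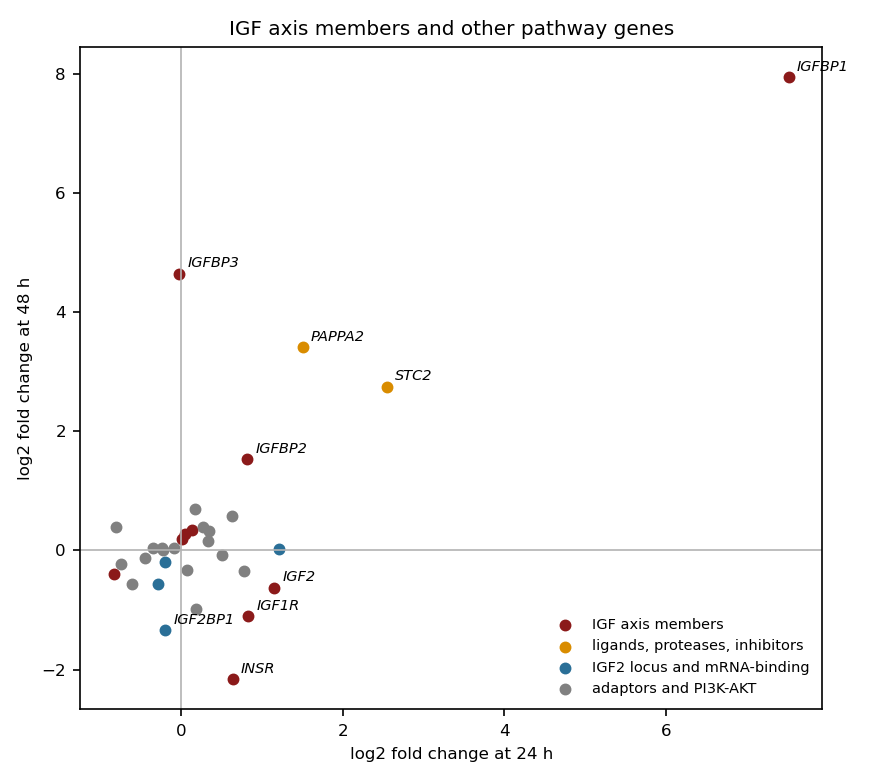
Log2 fold change of Molidustat over DMSO at 24 h (x axis) and at 48 h (y axis) for the 10 members and the other pathway genes reported here, 1 point per gene, colored by list. IGFBP1, STC2 and IGFBP2 lie above 0 on both axes, IGFBP3 near 0 at 24 h and at 4.65 at 48 h, and INSR lies lowest at 48 h, in a value that rests on DMSO 48 h replicate 2.

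Landmark HIF targets were read in the same libraries. PDK1, the kinase that holds pyruvate out of the mitochondrial cycle, rose at 24 h (log2 fold change 3.60 ± 0.68, SE, adjusted p 0.0339 by edgeR) and had a value of 1.64 ± 0.63 (SE) at 48 h, which did not pass. For PDK1 the 48 h value without DMSO 48 h replicate 2 was 2.47 ± 0.56 (SE), with an adjusted p of 0.0698 by edgeR. PDK1 was called at 48 h by limma-voom (adjusted p 0.000136), by edgeR with no filter on low counts (0.00803) and by DESeq2 without that library (0.000472). VEGFA, the endothelial growth factor, was at 34.7 to 39.5 CPM with DMSO and 64.2 to 80.0 CPM with Molidustat at 24 h, and its log2 fold change was 1.0 ± 0.29 (SE), which did not pass by edgeR. DESeq2 called VEGFA at 24 h (log2 fold change 1.01, adjusted p 0.0363). In the DESeq2 fit that omitted DMSO 48 h replicate 2, VEGFA had an adjusted p of 0.0181, but its log2 fold change lay just under the threshold of 1. At 48 h VEGFA had the middle value of the 3 landmarks tested, 0.86 ± 0.29 (SE), and EGLN3, a HIF prolyl hydroxylase, the lowest, 0.63 ± 1.0 (SE). That order turned without DMSO 48 h replicate 2, with 1.71 ± 1.0 (SE) for EGLN3 and 0.84 ± 0.29 (SE) for VEGFA.

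The cell type was checked against its markers. All 10 hepatocyte markers were tested, with AFP, alpha-fetoprotein, the most abundant. Their summed level was 16279 to 17278 CPM in the DMSO 24 h libraries, 22988 to 25263 in the Molidustat 24 h libraries, 9093 to 18985 in the DMSO 48 h libraries and 26438 to 31627 in the Molidustat 48 h libraries. The sum was higher with Molidustat in every library at both times, as IGFBP1 was at 48 h, and the lowest sum was that of DMSO 48 h replicate 2. By edgeR 0 of the 10 were called at either time, where 0.231% of all genes tested were called at each time. The median log2 fold change of the 10 markers was 0.42 at 24 h and 1.04 at 48 h, beside 0.02 and 0.01 over all genes tested. Their median at 48 h was 0.69 without DMSO 48 h replicate 2. In that fit edgeR called TF and SERPINA1 at 24 h (adjusted p 0.00163 and 0.0149) and at 48 h (0.0351 and 0.0474). The share of all genes called was then 0.761% at 24 h and 0.347% at 48 h. TF, transferrin, was highest at 24 h (1.26 ± 0.42, SE) and APOA1, an apolipoprotein, at 48 h (1.75 ± 0.54, SE), while APOB was lowest at both (0.05 ± 0.33 and -0.46 ± 0.33, SE).

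Markers of other cells were low. The 5 fibroblast markers summed to 2.13 to 6.20 CPM in the DMSO 48 h libraries and to 7.72 to 12.6 CPM in the Molidustat 48 h libraries, with COL1A2 the most abundant and 2 of 5 (COL1A1 and DCN) too low to be tested. The 4 leukocyte markers summed to 0 to 3.93 CPM with DMSO and 7.42 to 10.3 CPM with Molidustat at 48 h, nearly all of it CD14, which hepatocytes also express, with CD3E at 0 in all libraries and PTPRC at 7 counts in all. The 4 endothelial markers summed to at most 6.45 CPM in any library, with VWF at 0 in all. On the log2 scale the fibroblast values at 24 h ran from -0.16 ± 1.47 (SE) for PDGFRB to 3.62 ± 2.16 (SE) for COL3A1, and at 48 h from 0.27 ± 1.40 (SE) for COL3A1, which was -0.16 ± 1.60 (SE) without DMSO 48 h replicate 2, to 1.06 ± 0.87 (SE) for COL1A2. CD14 was at 1.32 ± 1.02 (SE) and 2.11 ± 1.01 (SE) and PECAM1 at 0.48 ± 1.70 (SE) and -1.19 ± 1.69 (SE) at the 2 times. By edgeR 0 of these genes were called, where 0.231% of all genes tested were called at each time. At 24 h the fibroblast sums were 0.62 to 5.01 CPM with DMSO and 2.87 to 5.58 with Molidustat, and the leukocyte sums 0 to 2.27 and 2.15 to 5.71. The fibroblast and leukocyte sums were thus higher with Molidustat at 48 h along with IGFBP1, IGFBP2 and IGFBP3, and their part in these values was not tested. In RNA from whole wells, fewer cells of a kind and less RNA per cell cannot be told apart.

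The genes whose log2 CPM (prior count 2) correlated best with IGFBP1 over the 12 libraries were PIGZ (Pearson r = 0.926), ATG9A (0.922) and FAUP4 (0.920). PIGZ was at a mean of 1.40 CPM with DMSO and 4.15 with Molidustat at 24 h, and at 1.55 and 14.1 CPM at 48 h. These libraries share the treatment groups, so the values describe a common pattern and carry no p. Of the other members, IGF2R had the highest r with IGFBP1 (0.684), followed by IGFBP2 (0.654) and IGFBP3 (0.542), and IGF2 had 0.365. Without DMSO 48 h replicate 2 the leading genes were PIGZ (0.932), POLD4 (0.926) and ENSG00000256514 (0.922), and IGF2 had r = 0.870 and rank 24 among all genes tested.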

How the data were processed

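Total RNA of 12 samples was profiled with a 3′ kit. The authors' processing notes name bcl2fastq 2.17.1.14, cutadapt 1.9.1, STAR 2.7.9a, HTSeq 0.11.2 and DESeq2 1.26.0, and reads were aligned to GRCh38. What the authors deposited are raw counts of reads for each gene, not normalized. The annotation release, the strand setting and the use of molecular identifiers are not given in the sources used here, so antisense and overlapping genes are uncertain and PCR copies may be counted. Each library lists 60666 genes, of which 60437 were named by GENCODE release 44, and 5 summary lines that name no gene and entered neither library sizes nor tests. Reads on no feature were 17.1 to 50.4% of each library.

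Libraries were grouped by the study's labels. Counts were fitted in R 4.3.3 with edgeR 4.0.16 (filterByExpr with a minimum count of 10 and a minimum total of 15, TMM factors, quasi-likelihood test over all 12 libraries with a mean per group, Benjamini-Hochberg adjustment over 14274 genes). Contrasts were Molidustat against DMSO at each time, the difference of these responses, and 48 h against 24 h in each treatment. Standard errors were derived from the F statistic, and those of IGFBP1, with control counts at or near 0, are rough. With 3 against 3 libraries an exact permutation test cannot go below 0.1 (two-sided), so none was used. The method was tested on simulated data in which all libraries shared a common profile apart from the genes set to change. That test does not cover a library that stands apart, as DMSO 48 h replicate 2 did. Folds against 0 counts use a floor of 3 counts over the group, and intervals cover counting error only.

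The members and lists were chosen with earlier results of these data known. All 10 members are named. Of each list, every gene called and the tested genes with the highest and lowest log2 fold change at each time are named, and the 3 genes most correlated with IGFBP1. Results for some genes of the lists are not reported here. The untested genes named and the differences of responses given for IGFBP3 and INSR were chosen after their values were seen. Alternatives were DESeq2 1.42.0, limma-voom with sample quality weights (limma 3.58.1), RLE factors, total counts, no filter, a filter of 10 counts in each of the libraries, separate fits for each time, no threshold on the fold change, the replicate number as a block, and each library left out in turn. DESeq2, and edgeR with no filter, each without DMSO 48 h replicate 2, were added after seeing the data. DESeq2 on all libraries gave no adjusted p for IGF2 and INSR. Plots were made with matplotlib 3.10.9 (Python 3.11.15).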

Additional observations from a re-analysis of the deposited data

How the results depend on the processing

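Counts of called members depended on the tool and on single libraries. At 24 h, 1 member (IGFBP1) was called with DESeq2 (1.02% of all genes tested called) and with no filter on low counts (0.373%), and 2 (IGFBP1 and IGF2) with DESeq2 (1.51%) or with no filter (0.759%) when DMSO 48 h replicate 2 was left out. At 48 h, 3 members were called with DESeq2 (2.45% of all genes tested), 2 with limma-voom (1.95%), 4 with no filter (2.69%), 0 with RLE factors (0.224%) and 0 with at least 10 counts in every library (0.199%), where IGFBP1 was not tested, and, without DMSO 48 h replicate 2, 3 with DESeq2 (1.13%) and 1 (IGFBP1) with no filter (0.465%). With no filter, INSR was called in the difference of responses (1 member, 1.13% of all genes), and IGF2 and INSR in the DMSO time comparison (2 members, 1.41%). Leaving out each library in turn gave 0 to 2 called members at 24 h and 0 to 1 at 48 h, with 0.131 to 0.761% and 0.0874 to 2.19% of all genes called. The IGFBP1 call at 48 h was lost without Molidustat 24 h replicates 2 or 3, DMSO 48 h replicate 3, or any of the 3 Molidustat 48 h libraries. Apart from those named, the causes of these changes were not tested.

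Of the other pathway genes at 24 h, 1 (STC2) was called with DESeq2 and with no filter, and 2 (STC2 and INS-IGF2) with DESeq2 or no filter without DMSO 48 h replicate 2, beside the shares of all genes given above. At 48 h, 1 was called with DESeq2, limma-voom, total counts (0.245% of all genes called), and DESeq2 (1.13%) or no filter (0.465%) without DMSO 48 h replicate 2, and 2, STC2 among them, with no filter (2.69%). Leaving out each library gave 0 to 1 at 24 h and 0 to 2 at 48 h, the 2 without DMSO 48 h replicate 1, where 2.19% of all genes were called.

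Log2 fold changes changed sign as follows. With limma-voom, IGF2 at 48 h was 0.73, IGFBP4 at 48 h -0.64, IGF2R at 24 h -0.024, IRS1 at 48 h 0.30, and IRS2 -1.05 at 24 h and -0.10 at 48 h. With total counts, IGFBP4 at 24 h was -0.0024 and IRS2 at 24 h -0.051. With no filter, IGFBP3 at 24 h was 0.01. With DESeq2 without DMSO 48 h replicate 2, IGF2 at 48 h was 1.0, IGF1R 0.023, INSR 0.31, IRS1 0.14 and IRS2 -0.25 at 48 h, and IRS2 -0.0036 at 24 h. With no filter and without that library, IGF2 at 48 h was 0.89, INSR 0.19, IRS1 0.032, IRS2 -0.35 and IGFBP4 -0.0084, and IGFBP3 at 24 h 0.0082. Leaving out each library in turn, the ranges that crossed 0 were -1.0 to 0.96 for IGF2, -1.53 to 0.71 for IGFBP4, -2.62 to 0.26 for INSR, -1.0 to 0.10 for IRS1 and -0.29 to 0.69 for IRS2 at 48 h. At 24 h they were -1.48 to 0.77 for IGFBP3, -0.10 to 0.18 for IGFBP4, -0.0097 to 1.25 for IGF1R, -0.20 to 0.34 for IGF2R and -2.72 to 0.72 for IRS2.

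The replicate numbers did not pair the libraries: deviations of same-numbered DMSO and Molidustat libraries from their group means correlated at -0.05 to 0.12. With the replicate block, 0 members were called at 48 h (0.154% of all genes) and IGFBP4 at 48 h was -0.081. IGFBP1, IGFBP2, IGFBP3 at 48 h and STC2 at both times kept their positive direction in every setting that tested them. With at least 10 counts in every library, IGFBP1, IGFBP3 and STC2 were not tested, nor was IGFBP3 at 48 h with each time fitted alone. Total counts moved the median of all genes at 48 h to 0.13. Members with few counts (IGFBP1, IGFBP3, IGFBP4 and IRS2) had the largest standard errors of the 10 at both times, and the part of depth in this was not tested.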
